A study of Mus musculus with 21 samples.

Results

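The distal end of mouse chromosome 4 holds several genes that differ between IDH1 mutant and IDH1 WT glioma lines, and the genes that lie among them are described here: whether they shift together, by genotype or by line. The stretch ran from 125 to 150 Mb (gene starts, GRCm38 coordinates as in the deposited table). It held 414 protein-coding genes, of which 184 had a mean below 0.5 FPKM over the 21 libraries (FPKM corrects a gene's fragment number for its length and for library depth). Leaving out by name Igsf21, Mfap2, Grik3, Fbxo2, Fbxo6, Fbxo44, Rps6ka1 and Pgd left 222 genes of the 54532 in the table, called members below. The members were chosen by gene position and by mean FPKM over all libraries. The place of the stretch and the 8 genes left out were chosen with the measured differences between the genotypes known, so genotype values of the members are a description. Differences between lines of the same genotype did not enter that choice. Just inside the expression limit were Zfp991 (0.505 FPKM) and Map3k6 (0.556 FPKM), and just outside were Ptpru (0.487 FPKM) and Tinagl1 (0.481 FPKM).

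Messenger RNA came from 7 lines of glioma stem-like cells that were derived from brain tumours of genetically engineered mice. The labels call PIC144-1, PIC144-3, PIC496-3 and PIC496-4 IDH1 mutant and PC134-0, PC308-1 and PC326-1 IDH1 WT, with 3 libraries per line called biological replicates. No line was treated, all grew in neural stem cell medium with EGF and bFGF at 5% oxygen, and the labels give neither the other alleles nor the age of the mice. Each line stands for its own tumour cells, and the pair named PIC144, like the pair named PIC496, may share an origin that the labels do not state. The libraries held 15011668 to 21966351 fragments on genes, and a member had a median of 743 fragments per library (range 0 to 18073). The summed FPKM of 6 stem-like and oligodendrocyte-lineage markers was 700 to 1479 per line, although Sox10 was at most 1.18 FPKM. Markers of microglia summed to 0.0993 to 1.38 FPKM over 9 genes, with C1qa, C1qb and C1qc at 0 in every line. Endothelial markers summed to 0.0802 to 0.844 FPKM over 4 genes, and neuronal markers to 3.19 to 29.6 FPKM over 4 genes, nearly all of it Tubb3. Fibroblast and pericyte markers summed to 0.387 to 2.09 FPKM over 5 genes in 6 lines and to 11.2 FPKM in PIC144-1, where Dcn alone had 10.4 FPKM. In such bulk samples, fewer cells of a type and less RNA per cell cannot be told apart.

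As background, IDH1 is a cytosolic enzyme of the isocitrate pathway, and its mutant form in glioma makes D-2-hydroxyglutarate, which inhibits enzymes that remove methyl groups from histones and DNA. Distal mouse chromosome 4 shares its gene order in large part with the short arm of human chromosome 1, the arm that is lost together with the long arm of chromosome 19 in oligodendroglioma, a glioma with mutant IDH. The stretch carries genes of splicing (Sfpq, Srrm1), chromatin (Arid1a, Kdm1a, Hdac1), growth signalling (Mtor), mitochondria (Mfn2, Pink1) and cell surface adhesion (Epha2, Clstn1, Pdpn). Windows of 2 Mb were numbered 1 to 13 from its lower bound, the last being 1 Mb wide. They held 20, 13, 30, 20, 32, 24, 16, 15, 16, 4, 1, 19 and 12 members.

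Promoter sequences are shown for 4 members whose line differences carry the account. Plod1 and Slc25a33, at the far end of the stretch, differed in opposite directions between PIC144-3 and the other mutant lines. Epha2 stood apart in PIC144-1, and Runx3 was near 0 in 3 lines. Each is the 250 bases before the RefSeq start, 5′ to 3′ on the strand of the gene, from GRCm38.p6, with the GC box GGGCGG or its reverse complement CCGCCC in capitals.
Plod1: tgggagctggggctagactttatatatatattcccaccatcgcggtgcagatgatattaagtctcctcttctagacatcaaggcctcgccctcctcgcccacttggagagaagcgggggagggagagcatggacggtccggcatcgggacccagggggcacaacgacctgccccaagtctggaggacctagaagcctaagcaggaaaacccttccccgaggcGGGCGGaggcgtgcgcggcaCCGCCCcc
Slc25a33: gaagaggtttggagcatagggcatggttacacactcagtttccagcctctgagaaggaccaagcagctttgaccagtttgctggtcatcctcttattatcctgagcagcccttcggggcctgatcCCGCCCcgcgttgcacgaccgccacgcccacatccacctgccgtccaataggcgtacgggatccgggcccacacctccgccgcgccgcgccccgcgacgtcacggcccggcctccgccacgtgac
Epha2: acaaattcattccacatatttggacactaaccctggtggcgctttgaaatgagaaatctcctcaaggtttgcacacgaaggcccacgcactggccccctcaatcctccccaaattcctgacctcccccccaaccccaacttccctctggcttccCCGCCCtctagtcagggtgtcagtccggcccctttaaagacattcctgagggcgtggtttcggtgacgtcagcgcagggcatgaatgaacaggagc
Runx3: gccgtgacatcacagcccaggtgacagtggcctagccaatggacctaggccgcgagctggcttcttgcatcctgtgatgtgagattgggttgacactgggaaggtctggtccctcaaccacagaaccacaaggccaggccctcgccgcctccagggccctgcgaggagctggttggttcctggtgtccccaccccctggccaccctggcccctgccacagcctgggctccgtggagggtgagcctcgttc
They lie at chr4:147936777-147937026 (minus strand), chr4:149774268-149774517 (minus), chr4:141300971-141301220 (plus) and chr4:135120395-135120644 (plus), in the order shown. Plod1 had 16 CpG dinucleotides and 2 GC boxes, Slc25a33 had 23 and 1, Epha2 had 9 and 1, and Runx3 had 8 and no GC box. In this table Runx3 has 2 RefSeq starts, and the one nearest to the gene start in the deposited file is shown. The E-box CACGTG was present in the Slc25a33 window and TATAAA (either strand) in the Plod1 window. Of all 32851 RefSeq starts, 32.7% had a GC box within the same length on either strand, 6.02% had CACGTG and 12.4% had TATAAA or TTTATA. Of the 246 starts of the 185 members found in the table, 62.6% had a GC box, 9.76% CACGTG and 4.88% TATAAA or TTTATA, and the median was 18 CpG beside 6 over all starts. The members are protein-coding genes above an expression limit, while the 32851 starts include genes of any level, so the sets are unlike. These matches describe letters in the window.

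No member differed between the genotypes at an adjusted p under 0.05, and the members as a set sat close to all genes. The test was limma on log2(FPKM + 0.5) of the 7 line means over 13379 genes with Benjamini-Hochberg adjustment. In the IDH1 mutant lines it called 0.0224% of all genes higher and 0.0897% lower. Of the 222 members, 220 entered the test. Tnfrsf1b and Zfp991 were too low in most lines: Tnfrsf1b had 3.54 FPKM in PIC144-1 and at most 0.483 FPKM elsewhere, and Zfp991 had 1.76 FPKM in PIC144-3, 1.04 FPKM in PIC496-3 and at most 0.424 FPKM elsewhere. At an unadjusted p under 0.05, 11 members lay above and 9 below the WT lines, beside 6.12% and 6.73% of all genes. The line means of the genotypes did not overlap for 19 members with the mutant lines on top and 10 with them below, that is 8.64% and 4.55%, beside 6.81% and 6.37% of all genes. The median log2 difference of the members was 0.07 (125 above 0 and 95 below), beside 0.01 for all genes tested. It was 0.03 without PIC144-3 and 0.04 without PC308-1. In TPM, values rescaled to 1 total per library, it was 0.02, where the median of all genes was −0.05. With 4 lines against 3, the precision is set by the number of lines.

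By window, the median genotype difference was 0.06, −0.09, 0.12, 0.09, 0.02, 0.04, 0.03, 0.07 and −0.10 in windows 1 to 9, and 0.29 and 0.21 in windows 12 and 13. Windows 10 and 11 had fewer than 5 tested members and have no median. Window 12 (147 to 149 Mb) had 13 of 18 members higher in the mutant lines and window 13 had 10 of 12. Much of the value in window 13 was PIC144-3: without that line the median was 0.05, with 6 of 12 members higher, and that of window 12 was 0.21. Among 685 windows of the same width on the other autosomes, 38 had a median at or above that of window 12.

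**Figure D1:**
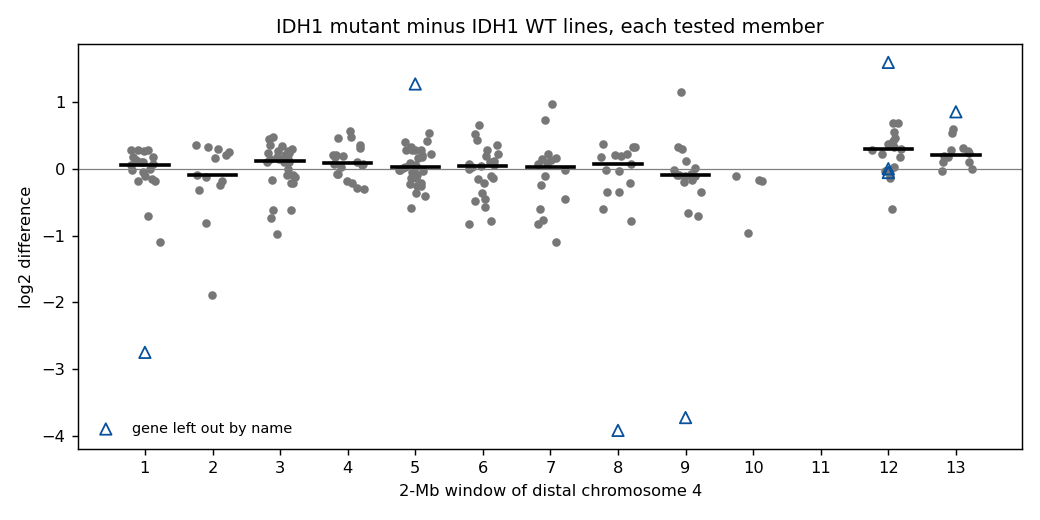
Log2 difference (IDH1 mutant minus IDH1 WT lines, vertical axis) of each tested member (grey points) by 2-Mb window (horizontal axis, points spread sideways to be visible), with the window median as a black bar and the 8 genes left out by name as open triangles. The medians stay between −0.10 and 0.29, while 3 triangles lie below −2 and 1 reaches 1.59.

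Of the 8 genes left out, 5 passed the same test. The 8 had been named with this genotype contrast known, so their values are a description. The log2 difference was −3.92 for Igsf21, −3.73 for Mfap2, −2.75 for Grik3, 1.59 for Fbxo2 and 1.27 for Rps6ka1, each with an adjusted p under 0.05. Pgd was at 0.85 (adjusted p = 0.11), while Fbxo6 and Fbxo44 were at −0.06 and 0.00. None of the nearest members on either side passed it. Crocc, a structural protein of the ciliary rootlet, starts 653 bases after Mfap2 and was at −0.10, and Atp13a2, a lysosomal polyamine transporter, ends 3088 bases before it and was at −0.22. Mad2l2, a subunit of translesion DNA polymerase zeta, ends 14922 bases before Fbxo2 and was at 0.38. Around Rps6ka1, the chromatin remodelling subunit Arid1a was at −0.09 and the nucleosome-binding Hmgn2 at 0.02. Around Igsf21, Aldh4a1 was at 0.32 and Arhgef10l at −0.35, and around Grik3, Meaf6 was at −0.18 and Mrps15 at 0.28. Cenps and Kif1b, on the sides of Pgd, were at 0.32 and −0.03. The adjusted p of these flanking members ran from 0.374 for Mrps15 to 0.977 for Hmgn2.

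The members with the smallest genotype p are given as levels. Csmd2, a large membrane protein with CUB and Sushi domains that is expressed in brain, was close to 0 in the mutant libraries, with a lowest value of 0, a median of 0.00779 and a highest value of 0.0530 FPKM. In the 9 WT libraries it had a lowest value of 0.683, a median of 1.26 and a highest value of 2.93 FPKM, so the groups did not overlap. Its log2 difference was −1.88 ± 0.31 (SE, 7 lines; adjusted p = 0.11), on a scale that understates the change of a gene this low. In TPM the adjusted p of Csmd2 was 0.0445, and without PC308-1 with the same genes tested it was 0.0468. Csmd2 overlaps Hmgb4 on the other strand over 746 bases, and the use of strand in counting is not given in the sources used here.

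Among members with higher values in the mutant lines, Luzp1, a leucine zipper protein of the cytoskeleton, had 12.4, 15.5 and 22.8 FPKM (lowest, median and highest of 12 libraries) against 9.35, 9.71 and 10.4 FPKM in the 9 WT libraries. Every mutant library was above every WT library, yet the adjusted p over 7 lines was 0.28. Srrm1, a splicing coactivator, had 22.3, 25.9 and 30.1 FPKM against 18.9, 20.6 and 21.5 FPKM. Mecr, an enzyme of mitochondrial fatty acid synthesis, had 6.04, 7.07 and 10.3 FPKM against 4.55, 4.81 and 5.69 FPKM. Rpl11, a protein of the large ribosomal subunit, had 143, 178 and 241 FPKM against 97.1, 125 and 159 FPKM. Its libraries overlapped, and reads of its near-identical pseudogene copies may be split in counting. The log2 differences of Luzp1, Srrm1, Mecr and Rpl11 were 0.66, 0.36, 0.57 and 0.52. Cda, the cytidine deaminase of pyrimidine salvage, was at 0.97 and Ahdc1, an AT-hook protein, at 0.42. Luzp1 overlaps the histone demethylase gene Kdm1a on the other strand over 4241 bases, and Kdm1a itself was at 0.11. Lower in the mutant lines, with adjusted p of 0.27 to 0.37, were Tmem35b (−0.82), the fatty acid carrier Fabp3 (−0.98), the ubiquitin ligase Ubr4 (−0.35), the CaMKII inhibitor Camk2n1 (−0.83) and Nipal3 (−0.78).

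Within a genotype, many members differed between lines. Each line was set against the mean of the other lines of its genotype, and a gene counted as called at an adjusted p under 0.05 (limma on the 21 libraries) and an absolute log2 difference of at least 0.5. The labels name the libraries of a line biological replicates without saying how they were separated, so these p-values measure the spread between libraries, which may be technical. In any of the 7 contrasts, 116 of 220 members were called (52.7%), beside 58.3% of all genes. The contrasts within a genotype share lines and are not independent of each other.

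PIC144-3 was the line in which members were most often called higher: 43 of 220 (19.5%), beside 15% of all genes, and 11 were called lower (5%), beside 9.86%. In PIC144-1, 15 members were higher and 20 lower, beside 11.9% and 11.8% of all genes. In PIC496-3 the counts were 14 and 17, beside 9.54% and 7.56%, and in PIC496-4 they were 22 and 32, beside 10.5% and 16.7%. Among the WT lines, PC134-0 had 14 members higher and 3 lower, beside 6.23% and 6.52%. PC308-1 had 11 higher and 31 lower, beside 14.1% and 13.8%, and PC326-1 had 11 higher and 5 lower, beside 5.69% and 8.19%. Between the lines that share a number, 20 members were higher and 47 lower in PIC144-1 than in PIC144-3, beside 14.6% and 16.9% of all genes, and 30 were higher and 25 lower in PIC496-4 than in PIC496-3, beside 10.8% and 15.6%.

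**Figure D2:**
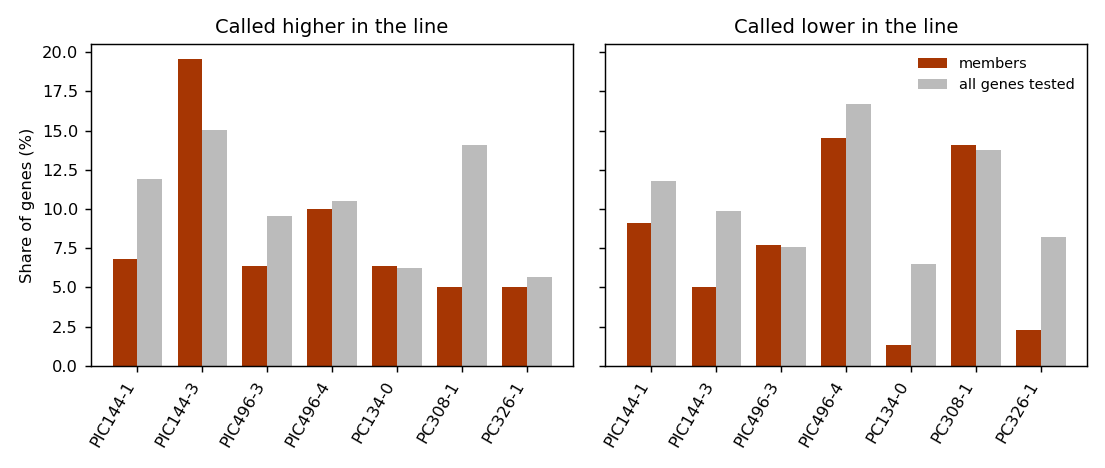
Share of genes (percent, vertical axis) called higher (left) or lower (right) in each line against the other lines of its genotype, for the 220 tested members (brown) and for all 13379 genes tested (grey). In PIC144-3 the members exceed all genes on the left and lie below them on the right.

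In PIC144-3 the members lay higher toward the distal end of the stretch. Against the other IDH1 mutant lines, the median log2 difference was −0.03, 0.09, −0.09, −0.03, 0.16, 0.22, 0.15, 0.24 and 0.42 in windows 1 to 9, and 0.40 and 0.56 in windows 12 and 13. Above 0 were 12 of 16 members in window 9 (141 to 143 Mb), 12 of 18 in window 12 and 10 of 12 in window 13. Called higher were 7 members in window 9, 6 in window 12 and 7 in window 13, and called lower were 0, 1 and 1, beside 15% and 9.86% of all genes. Every library showed it: relative to the mean of the 7 lines, the median deviation of window 13 was 0.45, 0.47 and 0.51 in the PIC144-3 libraries and between −0.14 and 0.04 in the other 18. In window 12 it was 0.38, 0.35 and 0.28 in PIC144-3, next highest in PIC496-4 at 0.19 to 0.23, and below 0.01 elsewhere. In window 9 it was 0.33, 0.39 and 0.33, with no other library above 0.16. Groups of libraries thus did not overlap in any of these windows. Among the 685 windows on other autosomes, 27 had a PIC144-3 median at or above that of window 13 and 50 had one of at least 0.40, near the values of windows 9 and 12.

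**Figure D3:**
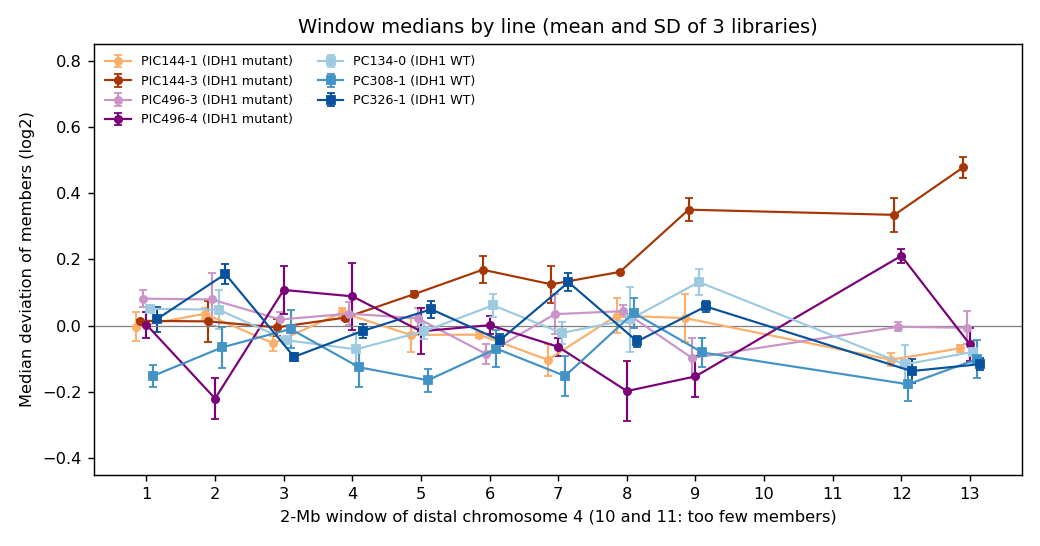
Median deviation of the members from the mean of the 7 lines (log2, vertical axis) by 2-Mb window (horizontal axis), as the mean and SD of the 3 libraries of each line, circles for IDH1 mutant and squares for IDH1 WT lines. PIC144-3 (dark brown) lies above the other lines in windows 9, 12 and 13 and reaches 0.48 in window 13, while in windows 1 to 4 it is at 0.01, 0.01, −0.01 and 0.02.

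Set against each of the other 6 lines in turn, the PIC144-3 median of window 13 was 0.48 to 0.62 and that of window 12 was 0.30 to 0.50. Window 9 was less even. There it was 0.64 against PIC496-4, 0.45 against PC308-1 and 0.35 against PIC496-3, but 0.12 against PIC144-1, 0.12 against PC134-0 and 0.14 against PC326-1.

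Windows 9 to 13 were grouped after these values were seen, so the following counts are a description. Of their 50 tested members, 37 were above 0, 21 were called higher (42%) and 2 lower (4%), beside 15% and 9.86% of all genes, and the median difference was 0.43. In windows 1 to 5, 61 of 115 were above 0, 9 were called higher (7.83%) and 5 lower (4.35%), and the median was 0.02. PIC144-3 had the highest level of the 7 lines for 26 of the 50 members (52%), beside 14.1% of all protein-coding genes tested. Members of all levels shared it, with medians of 0.28 for 18 members under 5 FPKM, 0.55 for 21 members at 5 to 20 FPKM and 0.54 for 11 members over 20 FPKM. The median was 0.46 for the 18 members on the plus strand and 0.43 for the 32 on the minus strand.

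The higher level was also seen beyond the upper bound. Over 66 tested protein-coding genes of chromosome 4 beyond it, the PIC144-3 median was 0.40, with 55 of 66 above 0, 23 called higher (34.8%) and 1 lower (1.52%). Over 437 genes before the stretch it was 0.07, with 252 above 0, 72 called higher (16.5%) and 22 lower (5.03%). Single 2-Mb windows there varied, so values as high as at the distal end were not confined to it. The PIC144-3 median was 0.77 at 101 to 103 Mb (6 genes) and 0.53 at 95 to 97 Mb (5 genes), but −0.16 at 123 to 125 Mb (19 genes). The shares of all genes were 15% and 9.86%. For all 11576 protein-coding genes tested it was 0.00. In the other 6 lines the median of the genes beyond the bound lay between −0.12 and 0.08. For the mutant lines among them the reference includes PIC144-3.

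**Figure D4:**
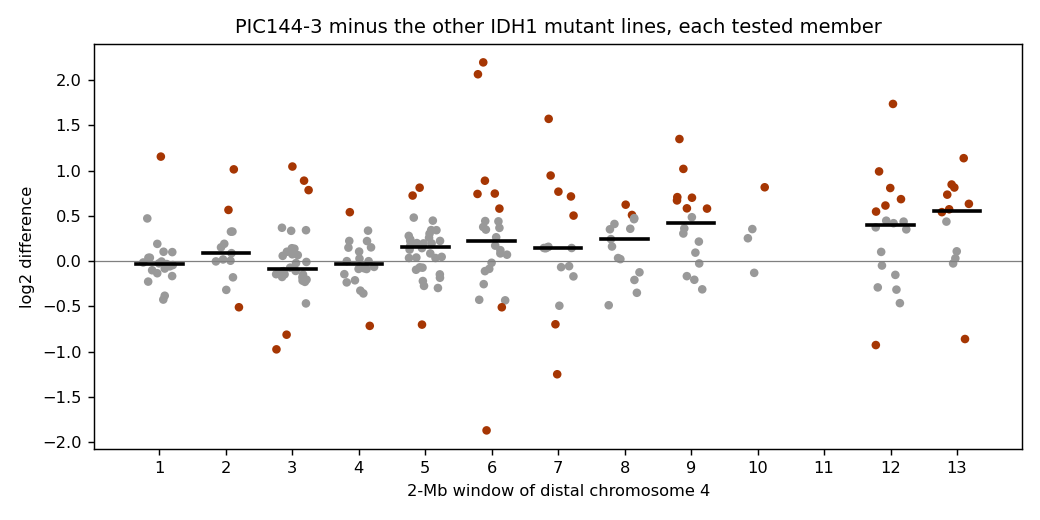
Log2 difference of PIC144-3 from the mean of the other IDH1 mutant lines (vertical axis) for each tested member by 2-Mb window (horizontal axis, points spread sideways), brown where called, with the window median as a black bar. The bar is at −0.03 in window 1 and at 0.56 in window 13.

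Among the genes behind this, Plod1 (chr4:147909753-147936767), a lysyl hydroxylase that modifies collagen and whose promoter is shown above, had the largest difference in windows 9 to 13. It had 138, 135 and 124 FPKM in PIC144-3 and 25.9, 23.9 and 21.7 FPKM in PIC144-1, the line that shares its number. The libraries of PIC496-3 had 66.2, 55.0 and 62.2 FPKM, those of PIC496-4 42.3, 40.2 and 42.5 FPKM, and the 9 WT libraries 47.8 to 69.6 FPKM. PIC144-3 was thus above and PIC144-1 below every other library. The log2 difference was 1.74 ± 0.06 (SE, adjusted p = 1e-13) for PIC144-3 and −1.53 ± 0.06 (adjusted p = 4.4e-13) for PIC144-1.

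Clstn1, a calsyntenin of neuronal membranes in window 13, had 121, 117 and 123 FPKM in PIC144-3 and 50.5 to 87.9 FPKM in the other mutant libraries, and 61.5 to 81.7 FPKM in the WT libraries (log2 difference 0.81 ± 0.04, adjusted p = 3.6e-12). Mfn2 and Mtor were chosen after their values were seen. Mfn2, which fuses mitochondrial outer membranes, had 27.6, 25.9 and 28.0 FPKM in PIC144-3, 14.2 to 16.8 FPKM in the other mutant libraries and 15.4 to 19.9 FPKM in the WT libraries. Mtor, the kinase of both mTOR complexes, had 16.0, 16.6 and 16.4 FPKM, against 8.64 to 13.7 FPKM and 8.38 to 9.96 FPKM. In each of these 3 genes the PIC144-3 libraries were above all others. Also called higher there, and named after their values were seen, were Kazn (1.35), the SOCS-box adaptor Spsb1 (1.14), the calcium-binding Efhd2 (1.02), the retrovirus restriction factor Fv1 (0.99), the β-catenin inhibitor Ctnnbip1 (0.85), the kinesin Kif1b (0.74) and the initiator caspase Casp9 (0.58). Of these, the PIC144-3 libraries of Kazn overlapped PC326-1 and those of Casp9 overlapped PC134-0, while those of Efhd2 overlapped PIC144-1 and lay below PC308-1.

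Not all neighbours followed. Slc25a33, a mitochondrial carrier of pyrimidine nucleotides in window 13 (promoter above), had 10.2, 8.31 and 8.80 FPKM in PIC144-3 against 24.8 to 27.9 FPKM in PIC496-4, 15.5 to 16.7 FPKM in PIC144-1 and 10.7 to 11.7 FPKM in PIC496-3. It was called lower in PIC144-3 (−0.86 ± 0.08, adjusted p = 2.9e-08) and higher in PIC496-4 (1.11 ± 0.08, adjusted p = 6.7e-10). Srm, the spermidine synthase, and Tardbp, an RNA-binding protein, were at −0.29 and −0.46. All these differences are against the other mutant lines alone, and those of Srm and Tardbp stayed under the size limit of 0.5. Srm was called higher in PIC496-4 (0.93) and lower in PIC496-3 (−0.62). Between the genotypes, Slc25a33 was at 0.59 (adjusted p = 0.48) and Srm at 0.69 (adjusted p = 0.36), higher in the mutant lines. These genotype values average all mutant lines, PIC496-4 included, so they do not place PIC144-3 itself above or below the WT lines.

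**Figure D5:**
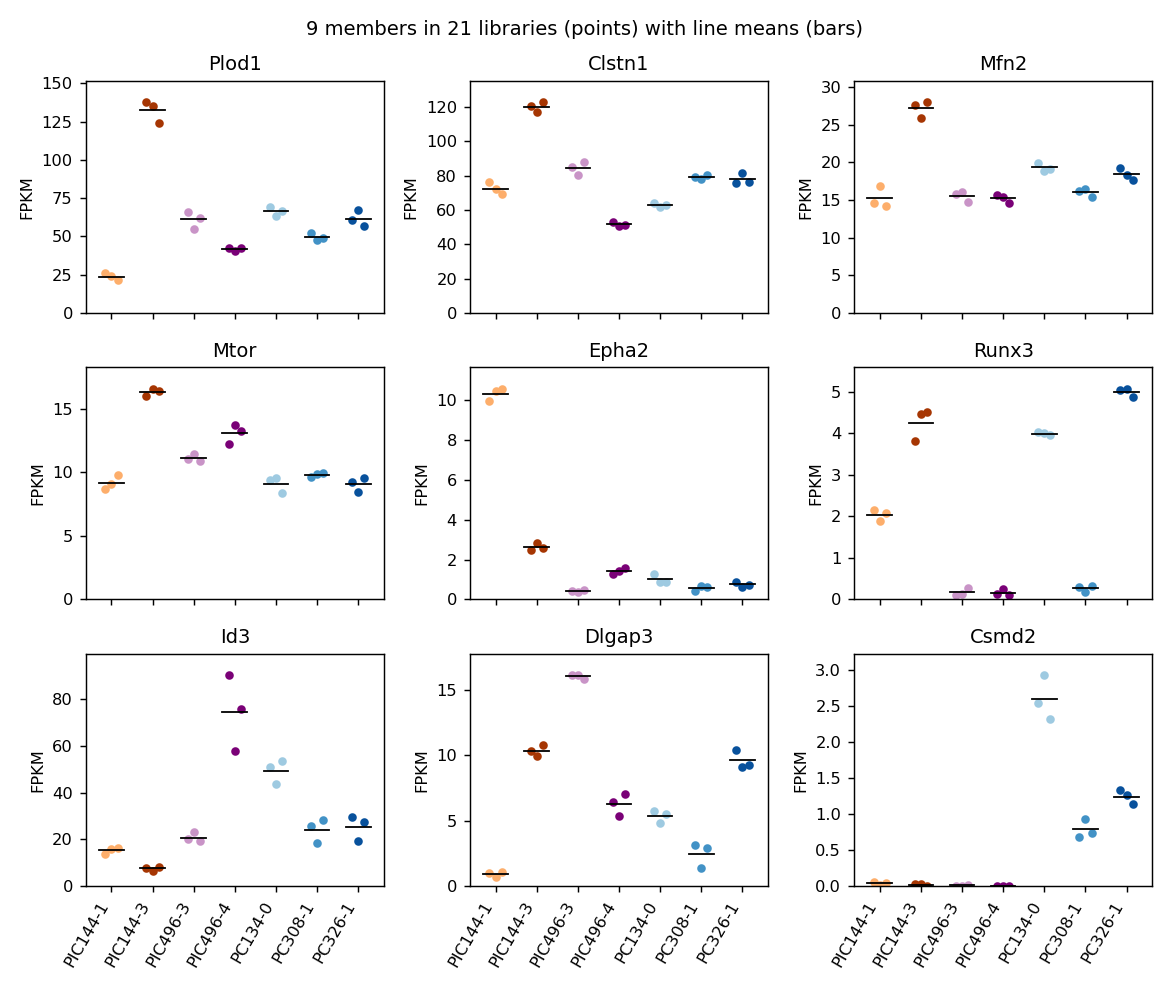
FPKM (vertical axis, linear from 0) of 9 members in the 21 libraries (points) with the line mean as a black bar, lines on the horizontal axis with the 4 IDH1 mutant lines first. Plod1, Clstn1, Mfn2 and Mtor are highest in PIC144-3, whereas Epha2, Runx3, Id3, Dlgap3 and Csmd2 each have another order of lines.

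Other members separated lines one gene at a time. Epha2 (chr4:141301240-141329384), a receptor tyrosine kinase for ephrin-A ligands with its promoter above, had 9.95, 10.4 and 10.6 FPKM in PIC144-1, 2.47 to 2.81 FPKM in PIC144-3 and at most 1.55 FPKM in any other library. Its difference in PIC144-1 was 2.61 ± 0.09 (adjusted p = 4.2e-14), and in PIC496-3, at 0.382 to 0.498 FPKM, it was −2.10. It was also called lower in PIC496-4 (−0.72). Pdpn, the surface glycoprotein podoplanin, was also called higher in PIC144-1 (1.62) and lower in PIC496-3 (−2.50), where it had 0.207, 0.0289 and 0.270 FPKM. It was also called higher in PIC144-3 (0.82) and in PC134-0 (0.53), whose 5.11 to 6.18 FPKM overlapped the 4.85 to 5.46 FPKM of PIC144-1. In PIC144-1 the fibroblast marker Dcn had its highest level (10.4 FPKM), as did Lum, at only 0.0819 FPKM. The rest of that marker list was not highest there. Col1a1 and Pdgfrb had 0.626 and 0.125 FPKM in PIC144-1, against 1.63 and 0.445 FPKM in PIC496-4. Rgs5 had 0.0393 FPKM, against 0.344 FPKM in PC308-1. A part of fibroblasts in these values was not tested. Runx3 (chr4:135120652-135177990), a transcription factor of the runt family, had 4.89 to 5.08 FPKM in PC326-1, 3.95 to 4.04 FPKM in PC134-0, 3.82 to 4.51 FPKM in PIC144-3 and 1.89 to 2.15 FPKM in PIC144-1. It stayed at or below 0.329 FPKM in PIC496-3, PIC496-4 and PC308-1, so it was on both sides of the genotype and was called in all 7 contrasts. The levels of PC134-0 and PIC144-3 overlapped.

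Id3, an inhibitor of basic helix-loop-helix transcription factors in window 6, had 90.5, 57.7 and 75.7 FPKM in PIC496-4 and 7.59, 6.53 and 8.31 FPKM in PIC144-3, the highest and the lowest lines. The differences were 2.42 ± 0.15 (adjusted p = 1.5e-10) and −1.87 ± 0.15 (adjusted p = 6.4e-09). Dlgap3, a scaffold protein of the postsynaptic density, had 15.9 to 16.2 FPKM in PIC496-3 and 0.676 to 1.04 FPKM in PIC144-1, with called differences of 1.83 and −2.94. It was also called higher in PIC144-3 (1.02), and in the WT lines lower in PC308-1 (−1.43) and higher in PC326-1 (1.31). Tcea3, a transcription elongation factor, had 4.37, 5.07 and 4.85 FPKM in PIC144-3 and at most 1.74 FPKM elsewhere (2.07 in the contrast). Alpl, the tissue-nonspecific alkaline phosphatase, was lowest in PIC144-3, at 1.39, 1.45 and 1.67 FPKM (−1.25).

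Draxin, a guidance protein of growing axons in window 12, was called higher in PIC496-3 (1.39) and PC308-1 (1.77) and lower in PIC144-1 (−1.41) and PC134-0 (−1.31). It overlaps Mad2l2 on the other strand over 315 bases. Padi2, which converts arginine to citrulline in proteins, was called lower in PIC496-4 (−1.81), where it had 0.0483 to 0.108 FPKM, and in PC326-1 (−0.91), and higher in PIC144-1 (1.34) and PC134-0 (0.69). Sh2d5, an SH2 domain adaptor, was called higher in PC134-0 (1.63) and PIC496-4 (0.89) and lower in PC308-1 (−1.35) and PIC496-3 (−0.63). Extl1, a glycosyltransferase of heparan sulphate synthesis, was called higher in PC308-1 (1.25) and PIC496-4 (0.64) and lower in PC134-0 (−1.03) and PIC144-1 (−0.52). Iffo2 was called lower in PIC496-4 (−0.82) and PC326-1 (−0.71). By window, PC308-1 had median differences of −0.27, −0.20 and −0.21 in windows 2, 5 and 7, PIC496-4 had −0.20 and −0.31 in windows 8 and 9, and PIC144-1 had −0.20 in both windows 12 and 13. All other medians of these 6 lines lay nearer to 0. The reference of PIC144-1 includes PIC144-3, which was high in windows 12 and 13. Relative to the mean of the 7 lines, PIC144-1 was at −0.12 and −0.07 there. PC134-0, PC308-1 and PC326-1 were at −0.15, −0.18 and −0.14 in window 12 and at −0.09, −0.10 and −0.12 in window 13.

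By role, no list had a member called by genotype. Of 21 splicing and RNA-binding genes, all tested, 16 were higher and 5 lower in the mutant lines (median 0.20), and among the most abundant was Sfpq at 47.7 to 97.7 FPKM (0.36, adjusted p = 0.42). Of 13 replication and division genes, 11 were higher (median 0.32), with the small GTPase Cdc42 at 0.13 and the chromosome condensation regulator Rcc2 at 0.18. Of 24 mitochondrial and metabolic genes, 17 were higher (median 0.20), Srm among them at 0.69 (adjusted p = 0.36). Of 21 chromatin and transcription genes, 14 were higher (median 0.07). The 9 adhesion genes (5 higher, median 0.08), the 15 tested genes of growth and death signalling (8 higher, median 0.17) and the 10 nervous system genes (4 higher, median −0.12) were divided. Their most abundant members were Sdc3 (0.23), the kinase Stk40 (0.26), the actin regulator Wasf2 (0.23) and Marcksl1 (0.21), a relative of the actin-binding MARCKS protein, none with an adjusted p under 0.05. The median of all genes tested was 0.01, and 50.9% of them and 56.8% of the members were above 0. The lists were chosen with earlier results known, so these counts are a description. Of the 11 immune genes 10 were below the expression limit, and Lck, a kinase of T cells named as the single member of its list although below the level asked of named genes, had at most 1.53 FPKM in any library (−0.62, adjusted p = 0.31).

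In PIC144-3, 7 of the 10 nervous system genes were called higher and 1 lower (median 0.73). Of these 10, Efhd2 and Kif1b lie in windows 9 to 13, and the others, such as Dlgap3 (1.02), Fabp3 (1.05) and Camk2n1 (0.72), lie before. Nkain1, which interacts with the sodium pump, was the gene called lower, at 27.7, 23.7 and 28.0 FPKM against 33.8 to 70.9 FPKM in the other mutant libraries. Of 15 growth and death signalling genes 6 were called higher and 1 lower, and of 9 adhesion genes 3 and 1, with the heparan sulphate proteoglycan Sdc3 lower (−0.81). Splicing, chromatin and replication genes gave 1 and 1, 1 and 2, and 1 and 3 called higher and lower, with medians of −0.09, −0.02 and −0.09. Of 24 mitochondrial and metabolic genes 4 were called higher and 3 lower. The percentages of all genes called in PIC144-3 are those given above.

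Likeness of neighbours over the 7 lines was low for most of the stretch. The median Pearson correlation of log2(FPKM + 0.5) between members next to each other was 0.11 over 219 pairs, 0.06 over 114 pairs in windows 1 to 5 and 0.37 over 49 pairs in windows 9 to 13. Over 10394 neighbouring pairs on other autosomes it was 0.31. These correlations are across 7 lines that share their libraries between all pairs, and they are a description. In all, 90 of the 222 members overlap another gene of the table and 67 one on the opposite strand.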

How the data were processed

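Polyadenylated RNA of 21 libraries from 7 mouse lines was sequenced as strand-specific read pairs, per the labels' protocols. The submitters' processing notes name HISAT2 and the mm39 build. No source used here names the counter or its use of strand. The deposited FPKM are the authors' values. Gene coordinates in the table are those of GRCm38 for 53462 of the 54409 gene IDs found in GENCODE M21, members included. FPKM times gene length gave whole fragments within 0.05 for all low values, hence the depths.

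Tests used log2(FPKM + 0.5) in R 4.3.3 with limma 3.58.1 (lmFit, eBayes with trend and robust). Genes needed a line mean of at least 0.5 FPKM in at least 3 of 7 lines. Genotype was tested on line means, lines on 21 libraries, and p-values were Benjamini-Hochberg adjusted over 13379 genes. The members, gene lists and tests were chosen with earlier results of these data known. Named members, with a highest line mean of at least 2 FPKM, are the 6 in each direction with the smallest genotype p, the 2 called with the largest difference in each direction per line, and the 2 most abundant of each role list (Lck, the single immune member, is under that limit). Alternatives were other pseudocounts (0.1 and 1), a filter at 2 FPKM, TPM, quantile normalization, voom on fragments, a replicate block, windows shifted by 1 Mb, members at 5 FPKM or more, no size limit, and leaving out lines or replicates. Leaving out lines with the tested genes kept, and PIC144-3 against all 6 other lines, were added after seeing the data. Figures were drawn with matplotlib 3.10.9. Values of 1 member are not reported here.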

Additional observations from a re-analysis of the deposited data

Results flagged for a closer look

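Within groups of 4 lines, a line was marked when its gap to the nearest line exceeded the 95% critical share of the range of the group (Dixon), which chance gives for about 1 in 20 groups. Of 49 groups looked at, 2 were marked, which is not more than that rate. The groups were window medians and named members. Many of those members had been named for their differences between lines or genotypes, so the rate is only a rough guide. The median deviation of window 13 over the IDH1 mutant lines was 0.47 in PIC144-3, with a gap of 0.89 of the range. Mecr over the IDH1 mutant lines was 10.1 FPKM in PIC496-4, with a gap of 0.85 of the range, and its genotype difference did not pass the test.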

How the results depend on the processing

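The genotype count called higher was 0 under every alternative run apart from the replicate block. One member, Csmd2, was called lower in TPM (count 1) and without PC308-1 with the tested genes kept, and leaving out lines or replicates gave 0 to 1. At an unadjusted p under 0.05, leaving out lines or replicates gave 5 (without PC134-0) to 24 (without PIC144-3) members higher, beside 11. The share of all genes under these fits is not given here, so these counts do not show a change particular to the members. The genotype median of the members was 0.03 to 0.09 when lines or replicates were left out. Over all tested genes, same-numbered libraries had median correlations of deviations of 0.02, 0.03 and −0.02 for the numbers 1 to 3 (lowest −0.12), beside −0.01 for different numbers. Not every pair was above 0.1, and the labels name no shared batch, so the numbers were not used as pairs. A hint of shared numbers remains: 12 of 21 libraries correlated best with their own number, and replicate 2 had the lowest median of the members in each of the 7 lines. The replicate block, which treats the 21 libraries as independent samples of a genotype, called 42 members higher and 21 lower. The share of all genes it called is not given here. For window medians by genotype, leaving out lines or replicates gave −0.035 to 0.14 in window 1, −0.18 to 0.10 in window 2, 0.069 to 0.21 in window 3, 0.088 to 0.13 in window 4, and −0.083 to 0.075 in window 6. It turned the sign in windows 5 (−0.025 to 0.065), 7 (−0.068 to 0.088), 8 (−0.011 to 0.12) and 9 (−0.15 to 0.016) too. A filter at a mean of 2 FPKM gave 0.21 in window 2 and 0.18 in window 8. TPM gave 0.039 and quantile normalization 0.12 in window 4, and windows shifted by 1 Mb gave 0.063 in window 2 and 0.10 in window 5. For PIC144-3, window 9 was 0.36 with the filter at 2 FPKM and 0.40 to 0.46 without 1 replicate. Window 12 was 0.62 with shifted windows and 0.34 against all 6 other lines. Window 13 was 0.52 with voom, 0.42 with shifted windows and 0.68 for members of at least 5 FPKM. The counts called in a line moved as follows, with the share of all genes given only for the runs without the size limit. With pseudocount 1, PC134-0 had 9 higher, and PC326-1 had 7 higher and 3 lower. With the filter at 2 FPKM, PIC496-3 had 10 lower, and PC326-1 had 6 higher and 2 lower. In TPM, PIC144-1 had 24 higher and 13 lower, PIC496-3 had 26 lower, PC134-0 had 24 higher and PC326-1 had 11 lower. With voom, PIC144-1 had 25 higher and PC134-0 had 24. The median of all genes in the PIC144-1 contrast moved by 0.12 in TPM and 0.11 with voom, and that of PIC144-1 minus PIC144-3 by 0.12 with voom. In TPM it moved by −0.059 in PIC496-3, 0.058 in PC134-0, −0.050 in PC326-1 and −0.056 for the genotype. Without the size limit, 43 of 220 members were higher and 80 lower in PIC144-1, beside 28.0% and 28.6% of all genes. In PIC144-3 the counts were 93 and 37, beside 30.2% and 27.8%. PIC496-3 had 40 and 56, beside 22.9% and 22.7%, and PIC496-4 had 64 and 73, beside 28.7% and 30.8%. PC134-0 had 50 and 22, beside 19.0% and 19.6%, and PC308-1 had 40 and 85, beside 29.1% and 29.2%. PC326-1 had 41 and 32, beside 18.5% and 20.1%. The counts were 43 and 90 for PIC144-1 minus PIC144-3, beside 28.2% and 30.0%. For PIC496-4 minus PIC496-3 they were 57 and 59, beside 25.1% and 26.4%. When lines or replicates were left out, the genotype difference of Plod1 ran from −0.57 to 0.24 (without PIC144-1), that of Clstn1 from −0.098 (without PIC144-3; −0.0017 without PC134-0) to 0.31, and that of Sdc3 from −0.030 (without PIC496-3) to 0.44. The settings named gave the other sign than all 7 lines. Depth limited the lowest members, such as Csmd2 in the mutant lines. The causes of these changes were not tested.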
